A study of Mus musculus with 6 samples.

Results

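The Sprouty genes Spry1, Spry2 and Spry4, the Spred genes Spred1 and Spred2, and the kinase genes Mapk3, Map2k1 and Map2k2 were examined in RAW264.7 cells, a mouse monocyte-macrophage line that can form osteoclast-like cells. All probe sets annotated to exactly 1 of these 8 genes were taken, which gave 23 of 45037 probe sets, for 7 of the genes; Mapk3 was not analysed here. Low-passage cells spent 24 hours in low-sodium medium (120 mmol/l, 3 arrays) or in normal-sodium medium (137 mmol/l, 3 arrays). The low-sodium medium was made by diluting the normal one, with mannitol added to hold the osmolality at 290 mOsm/l. Per the labels there were 4 biological replicates in each medium, of which 3 were analysed here. The labels also name M-CSF (10 ng/ml) together with RANKL (30 ng/ml), and their wording does not settle whether the normal-sodium cells were given these as well. RANKL is the cytokine that drives osteoclast formation, and M-CSF is a survival factor of the same lineage. The series was titled as a study of how osteoclasts respond to low extracellular sodium, and the comparison of the media asks which transcripts differ with it. The labels do not say how the replicate cultures were separated, so p-values measure the spread between these samples.

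Receptor tyrosine kinases such as the M-CSF receptor activate RAS, which recruits RAF kinases. RAF phosphorylates the kinases MEK1 and MEK2 (genes Map2k1 and Map2k2), and these phosphorylate ERK1 and ERK2. Sprouty and Spred proteins share a cysteine-rich domain and dampen this cascade, and transcription of several Sprouty genes is itself induced by ERK signalling, so they form a negative feedback loop. Spred1 recruits neurofibromin, the RAS GTPase-activating protein encoded by Nf1, to the membrane. In osteoclast precursors the cascade acts downstream of both M-CSF and RANKL.

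All 9 measured macrophage markers were at or above the median brightness of probe sets, as were 8 of 10 osteoclast markers, with Calcr and Itgb3 dim. The summed intensity of the osteoclast markers was 7226 to 8515 in low sodium and 2439 to 3107 in normal sodium, and 5 of the 10 rose in the fit with a replicate 3 term, against 3.09% of all genes, while the fit without the term called 0 of them; their part in the results below was not tested. In RNA from whole cultures, a change in the number of cells of a kind and a change in RNA per cell cannot be told apart. Markers of fibroblasts, T cells, B cells and epithelia summed to between 74.5 and 364.6 per list in low sodium and between 87.4 and 508.7 in normal sodium. The replicate 3 arrays of both media stood apart. At probe sets at or above the median brightness, replicates 1 and 2 differed by a median absolute log2 of 0.12 in low sodium and 0.13 in normal sodium. Replicate 3 differed from replicates 1 and 2 by 0.48 and 0.47 in low sodium and by 0.35 and 0.35 in normal sodium. Spiked Bacillus transcripts averaged log2 8.50 on the low-sodium and 8.54 on the normal-sodium replicate 3 array, whereas on replicates 1 and 2 they averaged 10.31 and 10.44 in low sodium and 10.19 and 10.45 in normal sodium. For the spiked dap transcript, the 3′ signal was above the 5′ signal by log2 3.28 and 2.93 on the low-sodium and normal-sodium replicate 3 arrays and by 1.22 to 1.46 on the other 4 arrays. The cells' own Gapdh and actin transcripts showed no such rise. Their 3′ minus 5′ values were -0.25 and -0.22 for Gapdh and 0.08 and 0.09 for actin on the replicate 3 arrays. On the other 4 arrays they were -0.36 to -0.26 for Gapdh and 0.20 to 0.29 for actin. Because the replicate 3 arrays stood apart, results are also given by replicate number and in a fit with a term for replicate 3. Any p-value from replicates 1 and 2 alone rests on the smaller spread between those closer arrays.

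The promoters of Spred1, Spred2 and Map2k1 are shown because Spred1 and Map2k1 were the genes with a called probe set in replicates 1 and 2 alone, and Spred2 is the other Spred gene. The windows run from 250 bases before to 50 bases from the gene start, 5′ to 3′ on the gene's strand, from RefSeq on GRCm38.p6, at chr2:117120821-117121120 (plus strand), chr11:19924192-19924491 (plus strand) and chr9:64253556-64253855 (minus strand). Capitals mark the ETS core CGGAAG and the CRE core TGACGT on either strand; ETS factors such as ELK1 and the CRE-binding protein CREB are among the transcription factors phosphorylated downstream of ERK.
Spred1: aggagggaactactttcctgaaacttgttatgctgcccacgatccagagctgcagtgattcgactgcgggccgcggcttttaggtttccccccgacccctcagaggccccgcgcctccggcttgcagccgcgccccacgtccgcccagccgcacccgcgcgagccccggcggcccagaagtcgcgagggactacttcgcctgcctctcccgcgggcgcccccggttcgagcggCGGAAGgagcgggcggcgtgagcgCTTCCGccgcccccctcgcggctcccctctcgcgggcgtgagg
Spred2: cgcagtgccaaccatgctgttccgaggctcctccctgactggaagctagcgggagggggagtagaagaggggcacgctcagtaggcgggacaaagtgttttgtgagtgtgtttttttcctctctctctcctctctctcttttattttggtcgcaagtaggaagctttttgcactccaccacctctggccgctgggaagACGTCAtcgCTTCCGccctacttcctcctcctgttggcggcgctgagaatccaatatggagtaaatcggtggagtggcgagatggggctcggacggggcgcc
Map2k1: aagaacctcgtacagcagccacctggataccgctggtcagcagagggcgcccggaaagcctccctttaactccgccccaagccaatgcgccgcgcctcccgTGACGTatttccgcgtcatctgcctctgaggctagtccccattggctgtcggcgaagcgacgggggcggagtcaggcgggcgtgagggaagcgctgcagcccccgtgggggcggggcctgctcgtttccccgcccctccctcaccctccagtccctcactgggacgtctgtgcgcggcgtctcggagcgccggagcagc
The Spred1 window held 2 matches to the ETS core and 0 to the CRE core. The Spred2 window held 1 of each, its ETS match overlapping a GC box (GGGCGG), and the Map2k1 window held 1 CRE core and 0 ETS cores. Of 32851 promoter windows in the same table, 16.9% held the ETS core and 7.51% the CRE core on either strand. The windows of Spry1, Spry2 and Map2k2 held neither, which says only that these letters are not in those windows. The AP-1 motif TGANTCA, found in 7.81% of all windows, had 0 matches in the 6 windows searched. The Spry4 window was not among those searched.

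None of the 23 probe sets passed the test between low and normal sodium. The fit without a replicate term called 0 of them and 0 of all 45037 probe sets (limma, adjusted p under 0.05), or 0% of the background, with 1 of the 23 and 2868 of all probe sets (6.37%) at an unadjusted p under 0.05. The fit with a replicate 3 term and a trended prior called 0 of the 23 as well, against 4.09% of all probe sets. Of the 23 probe sets 18 were at or above the median brightness, and their median log2 difference was 0.08, against -0.03 over all such probe sets. With the replicate 3 term, 12 of these 18 had a 95% interval that lay within a log2 difference of 1 in either direction; without the term it was 9 of 18. The intervals are per probe set and not adjusted for the number of probe sets.

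**Figure D1:**
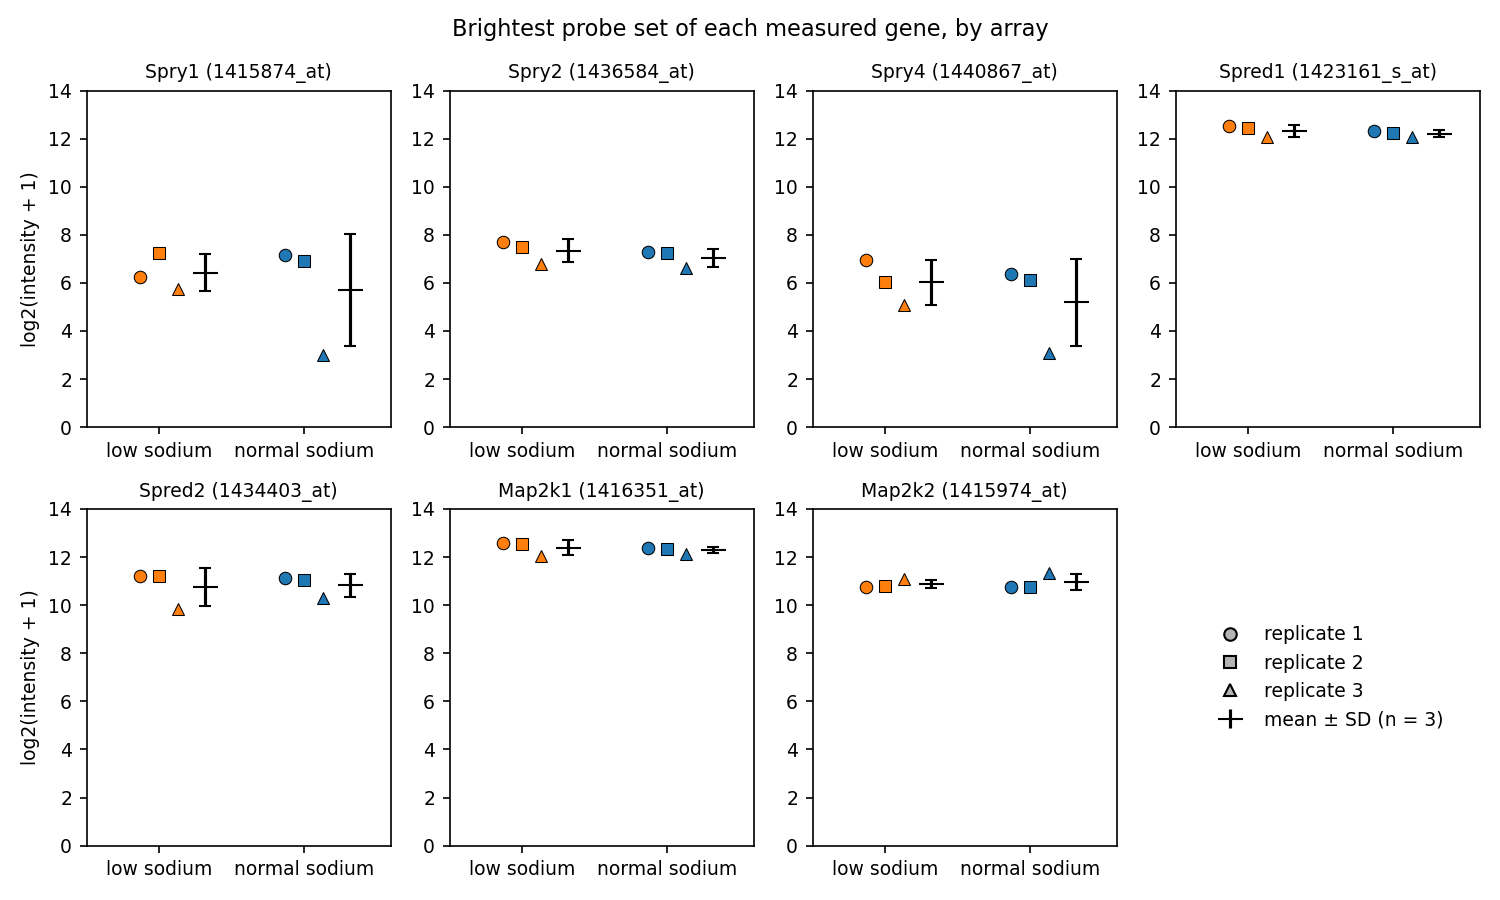
Log2(intensity + 1) of the brightest probe set of each of the 7 measured genes on the 3 low-sodium (orange) and 3 normal-sodium (blue) arrays, with symbols for the replicate number and black bars for the mean ± SD. The groups overlap in all 7 panels, and the replicate 3 arrays (triangles) are the lowest of each group in all panels but that of Map2k2.

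Sprouty transcripts gave weak signals. Spry2, which is induced by growth factors and restrains RAS-ERK signalling, had intensities of 208.5, 181.4 and 110.1 in low sodium, against 154.4, 149.3 and 96.1 in normal sodium at probe set 1436584_at. Replicates 1 and 2 in low sodium were above all the normal-sodium arrays, replicate 3 in low sodium was not, and the low-sodium array was the higher in each of the 3 replicate numbers. The means were log2 7.34 ± 0.48 in low sodium and 7.04 ± 0.38 in normal sodium (SD, n = 3 each), a difference of 0.30 ± 0.35 (SE) that did not pass (limma adjusted p = 0.923, and 0.528 with the replicate 3 term). The 95% interval of this difference was -0.56 to 1.16, or -0.16 to 0.77 with the replicate 3 term. The other Spry2 probe set, 1421656_at, went the other way without passing, with a difference of -0.37 ± 0.32 (SE, limma adjusted p = 0.895).

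Spry1, a Sprouty gene expressed in many tissues, had intensities of 75.0, 152.5 and 52.7 in low sodium, against 143.7, 119.9 and 7.06 in normal sodium at its only probe set, 1415874_at. The lowest value was that of the normal-sodium replicate 3 array, and the groups overlapped. Its log2 difference of 0.72 ± 1.20 (SE, limma adjusted p = 0.949) rested on that array, since it was -0.93 in replicate 1, 0.34 in replicate 2 and 2.74 in replicate 3. Without the normal-sodium replicate 3 array it was -0.63, and with 16 instead of 1 added before the logarithm it was 0.36.

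Spry4, another Sprouty gene induced by ERK signalling, was dim at all 4 of its probe sets, with log2 values of single arrays between 0.83 and 6.95. Its brightest probe set, 1440867_at, had intensities of 122.7, 65.1 and 32.9 in low sodium, against 80.5, 69.5 and 7.60 in normal sodium. The groups overlapped, with replicate 3 the lowest array of each. The difference was 0.83 ± 1.00 (SE, limma adjusted p = 0.926), and the 95% interval of -1.64 to 3.30 holds large differences in either direction. With 16 added it was 0.50.

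Spred1 had 8 probe sets, 7 of them at or above the median brightness. All 7 were higher in low sodium in replicates 1 and 2, by log2 0.18 to 0.87 in replicate 1 and 0.08 to 0.32 in replicate 2, while in replicate 3 the range was -0.30 to 1.11 and 4 of the 7 were higher. These probe sets are not independent, since 1423160_at, 1423161_s_at and 1423162_s_at derive from 1 annotated accession, as do 1428777_at with 1452911_at and 1443652_x_at with 1460116_s_at. The brightest, 1423161_s_at, had intensities of 5809, 5520.4 and 4245 in low sodium, against 5130.0, 4791 and 4276 in normal sodium. Replicates 1 and 2 in low sodium were above all normal-sodium arrays, and replicate 3 was below all of them. Its means were log2 12.33 ± 0.24 in low sodium and 12.20 ± 0.13 in normal sodium (SD, n = 3 each), a difference of 0.12 ± 0.23 (SE, limma adjusted p = 0.955). With the replicate 3 term the 95% interval was -0.05 to 0.30.

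The Spred1 probe set 1452911_at had intensities of 1633, 1621 and 1288 in low sodium, against 1333, 1326 and 1405 in normal sodium. In replicates 1 and 2 low sodium was the higher, and in replicate 3 the lower. When only replicates 1 and 2 were fitted, by a trended prior, this probe set rose by log2 0.29 (limma adjusted p = 0.0297), where 4.15% of all probe sets were called higher; over all arrays its difference was 0.15 (limma adjusted p = 0.939, and 0.538 with the replicate 3 term). Probe set 1423162_s_at had 1451, 1305 and 1344 in low sodium, against 1120.3, 1177 and 1277 in normal sodium, so that its groups did not overlap. Its difference of 0.20 ± 0.20 (SE) did not pass (limma adjusted p = 0.907). Across the 7 probe sets, Pearson correlations over the 6 arrays ranged from 0.0067 to 0.982 with a median of 0.746 over 21 pairs. Some pairs of these probe sets of 1 gene thus followed each other closely and others did not.

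**Figure D2:**
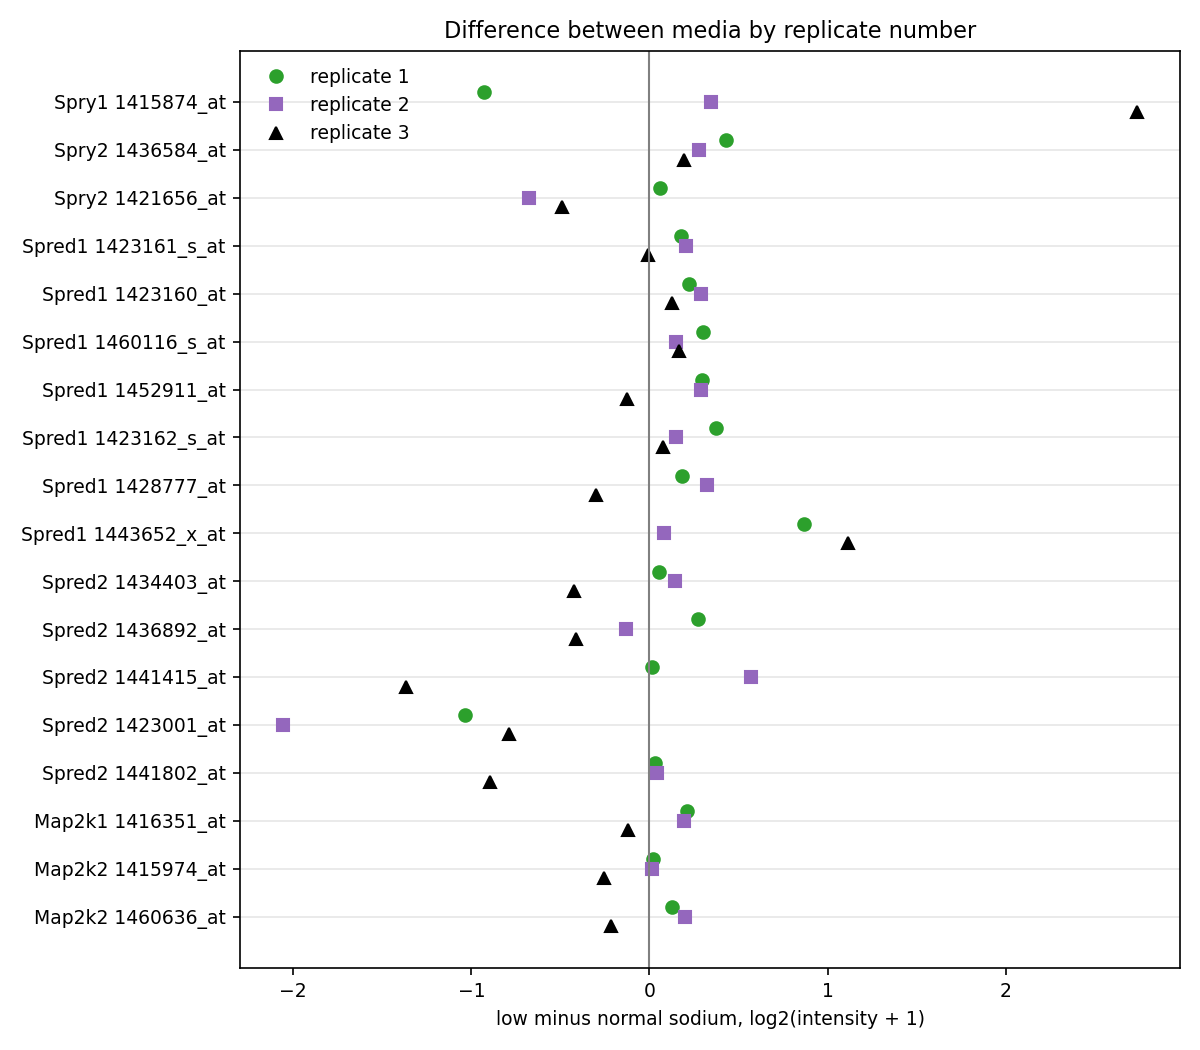
Low minus normal sodium on the log2(intensity + 1) scale for the 18 probe sets at or above the median brightness, with 1 symbol for each replicate number and a line at 0. The 7 Spred1 probe sets lie right of 0 in replicates 1 and 2, and all 5 Spred2 probe sets lie left of 0 in replicate 3.

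Spred2, which like Spred1 restrains RAF activation, had 5 probe sets, all at or above the median brightness. The brightest, 1434403_at, had intensities of 2351, 2353 and 927.2 in low sodium, against 2264, 2134 and 1246 in normal sodium. The replicate 3 array was the lowest of each group, and the groups overlapped. The means were log2 10.75 ± 0.77 in low sodium and 10.83 ± 0.47 in normal sodium (SD, n = 3 each). The difference was -0.08 ± 0.47 (SE, limma adjusted p = 0.990), with 0.05, 0.14 and -0.43 in replicates 1, 2 and 3. With the replicate 3 term the 95% interval was -0.35 to 0.19.

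A different Spred2 probe set, 1423001_at, was the only one of the 23 with an unadjusted p under 0.05. It had intensities of 46.4, 26.4 and 71.3 in low sodium, against 96.1, 113.1 and 124.2 in normal sodium. All low-sodium arrays were below all normal-sodium arrays, and the difference was -1.29 ± 0.40 (SE), which did not pass (limma adjusted p = 0.705, and 0.109 with the replicate 3 term). The other 4 Spred2 probe sets had differences of -0.28 to -0.08 with overlapping groups, so the probe sets of this gene disagreed in size. Over replicates 1 and 2 they disagreed in sign as well, with -1.55 at 1423001_at and 0.098, 0.069, 0.29 and 0.036 at the other 4. Groups did not overlap in 2 of the 23 probe sets, 1423001_at of Spred2 lower and 1423162_s_at of Spred1 higher, against 14.9% of all probe sets.

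Map2k1, the MEK1 gene, had intensities of 6181, 5952 and 4173 in low sodium, against 5339.9, 5208 and 4529 in normal sodium at its 1 probe set, 1416351_at. Replicates 1 and 2 in low sodium were the highest of all arrays and replicate 3 in low sodium was the lowest. The means were log2 12.39 ± 0.31 in low sodium and 12.29 ± 0.13 in normal sodium (SD, n = 3 each), a difference of 0.10 ± 0.25 (SE, limma adjusted p = 0.971). With the replicate 3 term the 95% interval was -0.10 to 0.29. When only replicates 1 and 2 were fitted, by a trended prior, it rose by log2 0.20 (limma adjusted p = 0.0453). Together with 1452911_at of Spred1 it made 2 of 23 probe sets called higher there, against 4.15% of all.

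Map2k2, the MEK2 gene, had 2 probe sets. At 1415974_at the intensities were 1740.0, 1774 and 2155 in low sodium, against 1719, 1754 and 2576 in normal sodium. Replicate 3 was the highest array of each group and the groups overlapped. The difference was -0.07 ± 0.26 (SE, limma adjusted p = 0.979). At 1460636_at the intensities were 556.8, 560.02 and 343.8 in low sodium, against 509.2, 487.1 and 400.01 in normal sodium, so that there replicate 3 was the lowest array of each group. Its difference was 0.04 ± 0.28 (SE, limma adjusted p = 0.991).

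More of the probe sets were called between the 2 replicate 3 arrays and the other 4 arrays than between the media. In the fit with the replicate 3 term, 11 of the 23 were lower in replicate 3, against 9.03% of all probe sets, and 1 was higher, against 6.06%. The lower ones were 5 probe sets of Spred1, 2 of Spred2 and 1 each of Spry1, Spry4, Map2k1 and Map2k2. Spred2 1434403_at fell by 1.08 on the log2 scale (SE 0.12, limma adjusted p = 0.00199), and Spred1 1423160_at fell by 0.59 (SE 0.08, limma adjusted p = 0.00353). Map2k2 1415974_at rose by 0.43 (SE 0.09, limma adjusted p = 0.0184), whereas 1460636_at of the same gene, annotated to the same accession, fell by 0.51 (SE 0.13, limma adjusted p = 0.0423). The spiked controls given above moved with this split, and their part in it was not tested.

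**Figure D3:**
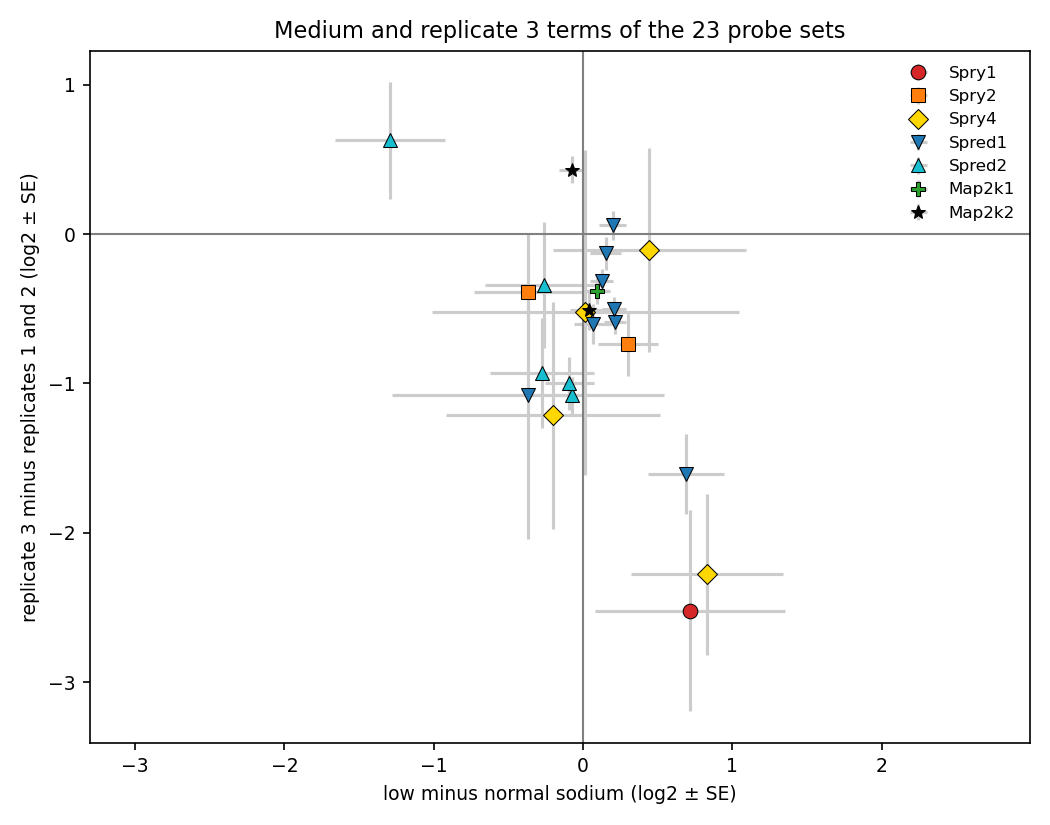
For each of the 23 probe sets, the term for low minus normal sodium (horizontal) against the term for replicate 3 minus replicates 1 and 2 (vertical), both on the log2 scale with SE bars from the fit with a trended prior. The points spread further down than to the sides, and 20 of 23 lie under 0 on the vertical axis.

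The sign of the difference between the media also varied with the replicate number. Of the 18 brighter probe sets 14 were higher in low sodium in both replicates 1 and 2, against 36.5% of all probe sets of that brightness, with 7 of the 14 from Spred1. Of these 14, 9 were lower in low sodium in replicate 3, against 3208 of the corresponding 8221 among all probe sets of that brightness. Taken over the 18, this switch from higher to lower was seen in 9, against 14.2% of all 22519. Over all 23, 5 were higher in every replicate number, against 17.4% of all probe sets, and 1 was lower in every one, against 18.7%. Replicate 3 holds 1 array of each medium, so a change in the effect of the medium there was not tested.

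Several transcripts that ERK signalling is known to induce rose in low sodium. Of 16 measured ERK target transcripts, 9 rose and 0 fell in the fit with the replicate 3 term, against 3.09% and 2.92% of all 18193 genes at their brightest probe set; the fit without the term called 0. The list's median log2 difference was 0.93, against -0.0081 over all genes, and it was 0.88 in replicates 1 and 2 and 0.99 in replicate 3. Part of this list was known from these arrays to be high in low sodium when it was written. Its counts and medians therefore describe the list and are not a test of it. Dusp5, a phosphatase that inactivates ERK in the nucleus, had intensities of 339.2, 337.2 and 375.1 in low sodium, against 34.0, 29.4 and 37.6 in normal sodium. Its groups lay far apart, with a difference of 3.35 ± 0.24 (SE, limma adjusted p = 0.000976 with the replicate 3 term, and 0.216 without). Hbegf, an EGF receptor ligand, rose by 3.30 ± 0.23 and Myc by 2.01 ± 0.23 (SE, limma adjusted p = 0.000976 and 0.00483 with the replicate 3 term, and 0.216 and 0.733 without). The phosphatase gene Dusp6, often read as an ERK target beside Spry2 and Spry4, did not pass, with 0.53 ± 0.30 (SE, limma adjusted p = 0.440 with the term); it was chosen for mention after its values were seen. Its differences were 0.96, 1.21 and -0.58 in replicates 1, 2 and 3, and in replicates 1 and 2 alone it rose by 1.09 (limma adjusted p = 0.000848). Ier3, Epha4 and Etv4 of this list had differences below 0 without passing, and were named after their values were seen. They were -0.56 ± 0.25, -1.38 ± 0.69 and -0.62 ± 0.88 (SE, limma adjusted p = 0.308, 0.376 and 0.797 with the term). At Ier3 and Epha4 all low-sodium arrays were below all normal-sodium arrays, and Epha4 and Etv4 were dim. Whether the targets' differences exceeded those of the Sprouty and Spred genes was not tested.

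**Figure D4:**
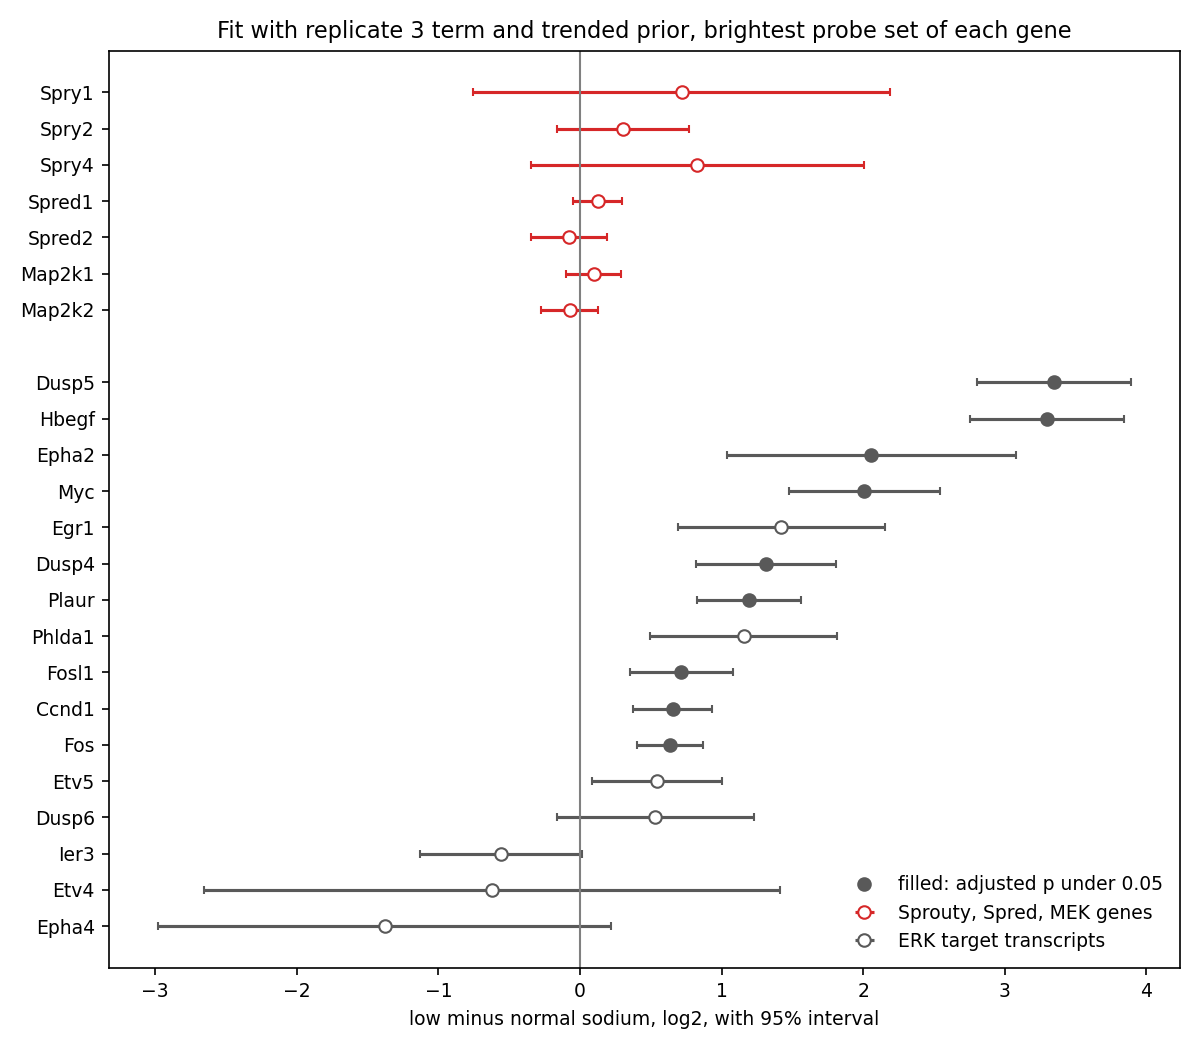
Low minus normal sodium on the log2 scale, with 95% intervals, at the brightest probe set of the 7 measured Sprouty, Spred and MEK genes (red) and of 16 ERK target transcripts (grey), from the fit with the replicate 3 term and a trended prior. Filled points have an adjusted p under 0.05. All 7 red points are open, and 9 of 16 grey points are filled. Part of the grey list was known from these arrays to be high in low sodium when it was written.

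Other genes of receptor, RAS and ERK signalling mostly did not pass, and the fit without a replicate term called 0 in every list below. Of 13 other inhibitors of RAS or of receptor signalling 2 rose and 0 fell in the fit with the replicate 3 term, with a list median of 0.18. Here and in the lists that follow, the shares over all genes were 3.09% higher and 2.92% lower, with a median of -0.0081. They were the genes of 2 RAS GTPase-activating proteins, Rasal2 at 0.79 ± 0.17 and Rasa1 at 0.65 ± 0.09 (SE, limma adjusted p = 0.0465 and 0.0105), and Rasa1 was named after its values were seen. Rasal1, of the same family, was dim and had -1.18 ± 0.61 without passing (SE, limma adjusted p = 0.398). Of 14 receptor adaptors 2 rose and 0 fell, with a list median of -0.07: the docking protein gene Gab2 at 1.07 ± 0.19 and Dok1, whose product recruits a RAS inhibitor, at 0.89 ± 0.17 (SE, limma adjusted p = 0.0235 and 0.028). The adaptor gene Shc1 had a difference of -0.42 ± 0.11 without passing (SE, limma adjusted p = 0.0908).

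Of 12 RAS and exchange factor genes 2 rose and 0 fell, with a list median of 0.27. Rasgrp3, an exchange factor that activates RAS, rose by 0.73 ± 0.16, and the small GTPase gene Rras rose by 0.63 ± 0.12 (SE, limma adjusted p = 0.0437 and 0.0336), while Rras2 had -0.28 ± 0.08 without passing (SE, limma adjusted p = 0.116). In the list of RAF and other MAP kinase pathway kinases 0 of 10 passed, with a median of 0.01. Braf had 0.41 ± 0.11, Araf 0.48 ± 0.17 and Map3k8 -0.23 ± 0.25 (SE, limma adjusted p = 0.0934, 0.194 and 0.714). Of 10 scaffolds 1 rose, Iqgap1 by 0.40 ± 0.07, and of 10 ERK substrates 1 rose, Elk3, an ETS factor of the ternary complex family, by 0.40 ± 0.08 (SE, limma adjusted p = 0.019 and 0.0388). The medians of these 2 lists were 0.14 and -0.02, and 0 genes fell in either. The arrestin genes Arrb1 and Arrb2, whose products can scaffold the cascade, had -0.55 ± 0.18 and -0.49 ± 0.13 without passing (SE, limma adjusted p = 0.148 and 0.0961). Among the substrates, the repressor gene Erf had -0.66 ± 0.20 and the kinase gene Rps6ka5 -0.38 ± 0.16 without passing (SE, limma adjusted p = 0.128 and 0.282).

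The genes whose log2 values followed the Sprouty and Spred genes most closely over the 6 arrays are given as a description, among 10406 or 10407 genes at or above the median brightness. The brightest Spred1 probe set was most like Klra2 (Pearson r = 0.998) and Lclat1 (0.995), and that of Spred2 like Lrrc58 (0.999) and Lynx1 (0.998). Spry1 was most like Ngdn (0.995) and Pikfyve (0.994), Spry2 like Phtf2 (0.996) and Sertad2 (0.996), and Spry4 like D5Ertd579e (0.998) and Cpd (0.995). Between 300 and 1018 genes had r over 0.9 with each of these 5, and all points share the replicate 3 arrays that stood apart.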

How the data were processed

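The authors deposited 1 intensity per probe set and array on a linear scale for 45101 probe sets, with Partek named, per the submitters' processing notes, without a version. The genome build and the summarisation of probes were not given in the sources used here. Each array's trimmed mean (values below the 2nd and above the 98th percentile left out) was 500.0, so the arrays had been scaled to a common target. Values were taken as log2(intensity + 1), and 64 control probe sets were left out of tests. Of 45037 probe sets tested, 34945 carried 1 gene in the platform annotation, and 34741 matched the RefSeq table of GRCm38.p6 by Entrez identifier. Each gene was taken at its brightest probe set. Dim means a higher group mean under the median of that quantity over all probe sets (log2 6.09), as the files give no detection calls.

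Low was compared with normal sodium by limma 3.58.1 in R 4.3.3 (constant prior, two-sided, no covariate, Benjamini-Hochberg over all probe sets, adjusted p under 0.05). A fit with a replicate 3 term and a trended prior was taken up with its count of calls known. Named genes were all members and up to 3 genes of each list by smallest p. The 2 genes most correlated with each Sprouty or Spred gene were named as well. Rasa1, Dusp6, Ier3, Epha4, Etv4, Errfi1, Nf1 and Spred3 were added after their values were seen. The members and lists were chosen with earlier results of these data known. The scripts were tested on simulated data.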

Additional observations from a re-analysis of the deposited data

How the results depend on the processing

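The 3 arrays per medium limit every value, and dim probe sets (all of Spry4) depend on the added 1. Over all probe sets, 0 were called without a term, with a replicate 3 term or replicate block at a constant prior, with robust eBayes, quantile normalization or median centring. The count was 33 with a trended prior, 1 with 16 added, 2 among the brighter 50% of probe sets, 1 with array weights, 1 with 1 probe set per gene, 1840 with the replicate 3 term and trend, 1720 with 16 added as well, 703 with the replicate block and trend, and 3714 in replicates 1 and 2 alone. In the same order of settings, 2, 1, 2, 1, 1, 26, 23, 10 and 41 pathway list probe sets were called, of 199 tested, or 146 in the brighter 50% and 85 with 1 probe set per gene. Of the 23 Sprouty, Spred and MEK probe sets (18 in the brighter 50%, 7 with 1 per gene), 0 were called in each of these settings except replicates 1 and 2 alone, with 2. Leaving out 1 array gave 0 calls of any kind without a term. With the replicate 3 term and trend as well, added after seeing the data, the counts ran from 380 to 3684 over all probe sets. They ran from 3 to 41 in the pathway lists and from 0 to 2 among the 23. The highest counts came without either replicate 3 array. There the term absorbs the remaining replicate 3 array, so the difference is that of replicates 1 and 2 alone and not a separate result.

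The replicate numbers were not taken to pair the cultures: deviations of same-numbered arrays from their group means correlated at 0.076, 0.065 and 0.196 for numbers 1, 2 and 3, and not every array correlated best with its own number. The replicate block therefore enters as an alternative only.

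The signs of some differences that had not passed changed. In replicates 1 and 2 alone they were -0.29 for Spry1 1415874_at, 0.017 for Map2k2 1415974_at, and 0.098, 0.069, 0.29 and 0.036 for Spred2 1434403_at, 1436892_at, 1441415_at and 1441802_at. With array weights those 4 Spred2 values were 0.11, 0.061, 0.18 and 0.0085. With 1 array left out, with or without the replicate 3 term, Spry1 ran from -0.63 to 1.46, Map2k1 from -0.0083 to 0.28, Map2k2 from -0.18 to 0.11 (1415974_at) and from -0.081 to 0.27 (1460636_at), and Spred1 1428777_at from -0.083 to 0.36. The 4 Spred2 probe sets ran from -0.35 to 0.37, -0.34 to 0.32, -0.63 to 0.29 and -0.55 to 0.19. The cause was not tested. The other 9 brighter probe sets kept their sign under every alternative run.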

Other observations

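The remaining Sprouty and Spred genes of the mouse, named here to complete the families, were dim. Spry3 averaged log2 2.86 in low sodium and 1.36 in normal sodium, and Spred3 5.28 in low sodium and 4.33 in normal sodium, with 0 passing (limma adjusted p = 0.417 and 0.669 with the replicate 3 term, and 0.807 and 0.904 without). Errfi1 and Nf1 were chosen after their values were seen. Errfi1, a feedback inhibitor of the EGF receptor, averaged 8.65 in low sodium and 8.64 in normal sodium (limma adjusted p = 0.994 with the term). Nf1, the partner of Spred1, averaged 7.16 in low sodium and 7.27 in normal sodium (limma adjusted p = 0.861 with the term).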
